A study of Mus musculus with 12 samples.

Results

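The acrosome and sperm-egg fusion genes are 36 genes whose products build the acrosome, fill it, or act when a spermatozoon meets and activates an egg, and 35 of the 36 were found by gene symbol among 24516 named genes in the mouse testis transcriptome. They were taken as a fixed list of symbols, and Dcst2 was the member with no row under its own symbol. The study sequenced total RNA of whole testes from wild-type C57BL/6 males at 3, 6, 12 and 18 months of age (3M, 6M, 12M and 18M), with 3 mice per age and 12 libraries in all. No treatment or mutation was involved and the groups are labelled by age alone. It is not stated whether animals of an age were littermates, so age and litter cannot be told apart. Between 50924104 and 71803379 estimated reads per library fell on assembled transcripts.

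The acrosome is a vesicle derived from the Golgi apparatus that spreads over the nucleus of the round spermatid and is released at the egg coat. Its matrix holds proteases, hyaluronidases and binding proteins. Other proteins sit on the membranes below it and are exposed once it has opened, where IZUMO1 meets its egg receptor JUNO and, with partners such as SPACA6, TMEM95, DCST1 and DCST2, allows the membranes to fuse. In the testis nearly all of these genes are known to be transcribed in late spermatocytes and spermatids. The whole testis was measured here, so fewer cells of a type and less RNA per cell cannot be told apart in any value that follows.

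The promoters of 4 members are shown. Spaca3, Spaca1 and Spaca4 are among the members of smallest p in the age comparison below, and Izumo1 was added by choice. The 4 promoters differ in the short motifs they hold. They run from 250 bases before to 50 bases after the annotated start, come from RefSeq on GRCm38.p6, and are written 5′ to 3′ along the gene's strand. Spaca3 lies at chr11:80858139-80858438 on the plus strand, Spaca1 at chr4:34050016-34050315 on the minus strand, Izumo1 at chr7:45621561-45621860 on the plus strand and Spaca4 at chr7:45725767-45726066 on the minus strand. Capitals mark each match, on either strand, to TGACG, the half-site of the cAMP response element bound by CREM in spermatids, to the CCAAT box, to the TATA box as TATAAA, and to GTTGCC, a half-site of the X-box bound by RFX factors.
Spaca3: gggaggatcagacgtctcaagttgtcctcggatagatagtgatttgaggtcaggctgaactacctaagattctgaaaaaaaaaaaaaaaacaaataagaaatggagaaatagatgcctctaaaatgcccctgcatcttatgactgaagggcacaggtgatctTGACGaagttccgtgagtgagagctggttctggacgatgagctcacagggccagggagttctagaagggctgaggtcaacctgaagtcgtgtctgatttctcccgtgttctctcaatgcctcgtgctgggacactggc
Spaca1: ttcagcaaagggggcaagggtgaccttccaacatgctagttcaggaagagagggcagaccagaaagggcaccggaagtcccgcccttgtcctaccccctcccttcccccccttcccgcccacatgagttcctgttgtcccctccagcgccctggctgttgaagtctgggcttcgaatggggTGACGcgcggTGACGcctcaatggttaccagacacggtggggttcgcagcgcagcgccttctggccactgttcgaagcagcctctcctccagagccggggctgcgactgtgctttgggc
Izumo1: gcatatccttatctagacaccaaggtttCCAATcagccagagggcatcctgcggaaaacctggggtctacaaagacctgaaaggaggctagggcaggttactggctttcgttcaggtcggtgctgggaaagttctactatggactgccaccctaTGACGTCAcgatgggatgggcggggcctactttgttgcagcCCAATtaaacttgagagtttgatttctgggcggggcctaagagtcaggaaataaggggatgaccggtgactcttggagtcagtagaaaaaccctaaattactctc
Spaca4: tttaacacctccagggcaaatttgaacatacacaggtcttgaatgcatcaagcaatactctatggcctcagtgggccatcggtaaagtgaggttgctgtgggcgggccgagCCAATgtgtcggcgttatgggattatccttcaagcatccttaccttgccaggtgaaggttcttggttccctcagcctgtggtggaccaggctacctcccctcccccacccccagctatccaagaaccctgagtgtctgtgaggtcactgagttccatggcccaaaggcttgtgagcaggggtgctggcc

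The half-site TGACG stood once in the Spaca3 promoter, 88 bases before the start, and in 2 copies in the Spaca1 promoter, 69 and 59 bases before it. Izumo1 held the full element TGACGTCA from 96 bases before the start, in which the half-site matches both strands with overlap, and CCAAT in 2 copies. Spaca4 held a single CCAAT. Fam170b and Actl9, also among the members of smallest p, have promoters that are not shown. These held CCAAT and TATAAA respectively, and neither held TGACG. RefSeq promoters were matched for 31 of the 36 members, which have 36 annotated starts among them. TGACG was in 12 of these 36 promoters and in 20.8% of all 32851 mouse promoters of the same length, and the full element was in 1 of 36, that of Izumo1, and in 1.79% of all promoters. TATAAA was in 3 of 36 member promoters and 13.6% of all, GTTGCC in 8 of 36 and 12.5% of all, and CCAAT in 9 of 36 and 37.4% of all. A match of letters is a description of these windows only.

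Expression levels were compared between genes as FPKM, the authors' deposited fragment values scaled to transcript length and to sequencing depth, summed here over the transcripts of a gene. On this scale per length, 33 of the 35 members had a mean FPKM of at least 10 over the 12 libraries, against 24.1% of all named genes, and 17 had at least 100. The median member stood at 86.1 FPKM. Crisp2, a cysteine-rich secretory protein of the acrosome and tail with a role in gamete binding, had the highest level. Its FPKM was 1225, 1124 and 1197 in the 3M mice, 1198, 1207 and 1155 at 6M, 1185, 1163 and 1192 at 12M and 1203, 1238 and 1298 in the 18M mice. Crisp2 alone took 23.1% of the reads on the members after scaling, and the 5 members with most reads took 46.7%. Gopc, a Golgi protein that vesicle transport to the acrosome depends on and that many tissues express, had the lowest level, 7.0 FPKM on average, with values from 6.53 to 7.84.

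The order of levels separated some members clearly and left most neighbours with overlapping ranges. Of the 34 pairs of neighbours in the order, 28 overlapped in their ranges over the 12 libraries and 6 did not. Among the overlapping pairs, Spink2 was above Spaca9 and Fam170b above Izumo4 in all 12 libraries. Spaca9 was above Acrbp in 6. Crisp2 stood apart from Actl7b below it, which averaged 418 FPKM. Acrbp, the proacrosin-binding protein, averaged 311 FPKM and stood apart from Actl9, an actin-like protein of the subacrosomal layer, at 261 FPKM, which in turn stood apart from Acrv1, an acrosomal vesicle protein, at 183 FPKM. The other separated neighbours were Spesp1 above Zp3r, Zpbp above Spam1 and Spaca6 above Tmem95. Among the genes known to be needed for fusion, Izumo1 averaged 47.8 FPKM, Dcst1 28.5, Spaca6 13.1 and Tmem95 8.57, so the fusion factors spanned a wide range of transcript levels within the same tissue. Spam1, the sperm surface hyaluronidase PH-20, averaged 30.0 FPKM and its relative Hyal5 55.1. Acr, which encodes the protease acrosin, averaged 62.2 FPKM, and Plcz1, the phospholipase that starts calcium oscillations in the egg, averaged 114.

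**Figure D1:**
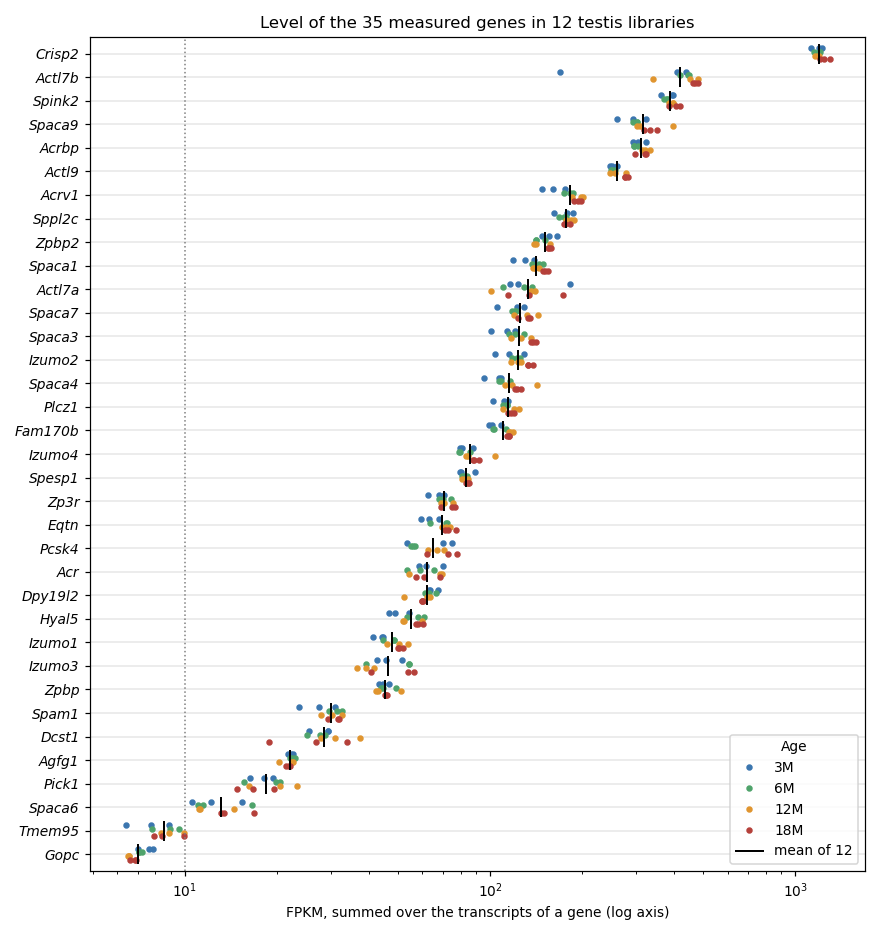
FPKM of each of the 35 measured members on a log axis, one point per library coloured by age and a bar at the mean of 12, ordered by that mean. Crisp2 stands above the rest at a mean of 1199 FPKM, the dotted line marks 10 FPKM, and only Tmem95 and Gopc have a mean to its left.

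Of 6 genes for partners of these proteins on the egg side, 4 had a mean under 0.1 FPKM in the testis. Izumo1r, which encodes JUNO, had a mean of 0.0021 FPKM, and the zona pellucida genes Zp1, Zp2 and Zp3 had means of 0.054, 0.0022 and 0.11 FPKM. Cd9, which many cell types express, had a mean of 2.74 FPKM. Markers of the epididymis, the duct in which sperm mature, were under 0.1 FPKM for 5 of 8, with Lcn5 and Adam7 at 0 in every library. Defb20 and Ros1 had means of 0.19 and 0.15 FPKM, and Rnase10 was the highest of the 8 at 2.41 FPKM, with 2.19 to 2.82 over the libraries. Markers of spermatids were abundant, with means of 6003 FPKM for protamine Prm1 and 3720 FPKM for transition protein Tnp1.

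The main age comparison set 18M against 3M with edgeR's quasi-likelihood test on reads summed per gene, scaled by TMM (trimmed mean of M values) to counts per 1000000 reads (CPM). It called 0 of the 35 members at an adjusted p of 0.05 or less, where 16 of 24744 genes and loci tested were called, or 0.0647%. DESeq2 called 2 of the 35, Spaca3 and Spaca1, both higher at 18M, where it called 1.03% of all genes and loci. At an unadjusted p of 0.05 or less edgeR had 12 members, against 12.0% of all genes and loci, and 11 of them were higher at 18M, against 5.68% of all genes and loci in that direction, and 1 lower, against 6.32%. By sign, 30 of the 35 members were higher at 18M than at 3M, and 51.4% of all genes and loci tested were. The median difference of the members was 0.13 on the log2 scale, a fold of 1.10, and that of all genes and loci was 0.0064. Among the 8694 tested genes and loci with at least the mean CPM of the lowest member, the median difference was -0.0073 and 48.1% were higher at 18M.

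The fitted differences were small. In this main fit the folds of 18M over 3M ran from 0.909 in Gopc to 1.33 in Actl7b. The 95% interval lay within 2-fold of no difference for all 35 members and within 1.5-fold for 34. Every member had at least 750 reads in every library. All 3 libraries of 18M were above all 3 of 3M for 13 members, against 9.57% of genes and loci tested, and all were below for 3 members, against 9.97%. The reads on the members made up 0.756% to 0.859% of each library. Their summed CPM was 7814 ± 278 at 3M, 7956 ± 173 at 6M, 8242 ± 20.2 at 12M and 8453 ± 208 in the 18M mice (SD, n = 3), and the ranges of 3M (7542 to 8098) and 18M (8213 to 8584) did not overlap.

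**Figure D2:**
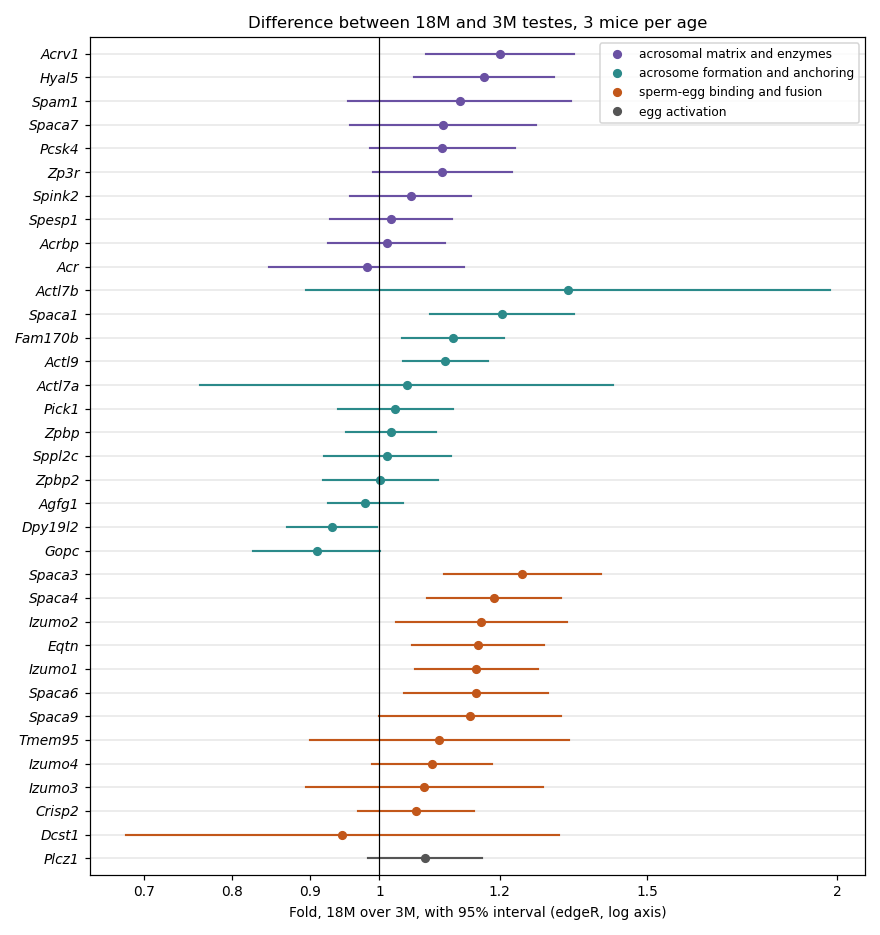
Fitted fold of 18M over 3M for each member with its 95% interval, calculated from the edgeR fit, on a log axis. Members are grouped and coloured by role. Points run from 0.909 to 1.33, 30 of 35 lie to the right of 1, and the interval of Actl7b is the widest, from 0.894 to 1.98.

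The genes grouped here under the role of sperm-egg binding and fusion had 11 of 12 measured higher at 18M. Their median difference was 0.20 on the log2 scale. Spaca3, a lysozyme-like protein of the acrosome known to take part in binding to the egg, was the member with the smallest p. Its CPM was 98.9, 87.4 and 105 in the 3M mice, 106, 100 and 110 at 6M, 111, 103 and 117 at 12M and 123, 121 and 119 in the 18M mice. Every 18M mouse was above every mouse of 3M, 6M and 12M on CPM. On FPKM the third 12M mouse, at 136.6, was above the third 18M mouse, at 135.9. The gene lies on chromosome 11 at 80858365 to 80867814 (mm10, GENCODE vM21), is read as a single transcript of 5 exons, and differed by 0.31 ± 0.072 (log2, SE), an adjusted p of 0.350 in edgeR and 0.0224 in DESeq2. Spaca4, a small membrane protein with a role in binding the zona pellucida, measured 81.2, 72.4 and 82.6 CPM at 3M, 82.8, 81.1 and 86.1 at 6M, 90.3, 86.6 and 106 at 12M and 92.3, 92.0 and 96.4 in the 18M mice. All 12M and 18M mice were above all 3M mice, and one 12M mouse had the highest value. The 18M to 3M difference was 0.25 ± 0.061 with an adjusted p of 0.353.

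The other genes grouped under this role gave differences of the same size or smaller. Izumo1, the sperm ligand of JUNO, had a mean of 79.3 ± 5.07 CPM at 3M and 91.8 ± 1.35 at 18M (SD, n = 3), and its 18M mice were all above its 3M mice. Izumo2, Eqtn and Spaca6 also had all 18M mice above all 3M mice, with folds of 1.17, 1.16 and 1.16. Eqtn encodes equatorin, a protein of the acrosomal membrane, and Izumo2 is a relative of Izumo1. Izumo3, which the biogenesis of the acrosome needs, measured 69.4 ± 6.38 CPM at 3M and 74.2 ± 9.26 at 18M, and Izumo4 83.0 ± 4.87 and 89.8 ± 2.33, both with overlapping groups. Tmem95 had a fold of 1.10 with an interval from 0.900 to 1.33. Dcst1 was the gene of this role with the lower mean at 18M, 66.6 ± 18.8 CPM against 70.5 ± 5.73. Its 18M mice spread from 47.6 to 85.1, a wider range than that of its 3M mice. Its direction rested on single libraries, with a difference of 0.11 ± 0.12 (log2, SE) without the third 18M mouse and -0.30 ± 0.16 without the second. On chromosome 3 the annotation of Dcst1 runs to 89365253 on the minus strand, and that of Dcst2 starts at 89361975 on the plus strand. The kit does not mark the strand, so reads where these annotations overlap cannot be told apart by strand. Spaca9 had a fold of 1.15 with an interval from 0.999 to 1.32, and Crisp2 one of 1.06.

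Among the genes of acrosome formation and anchoring, 9 of 12 were higher at 18M, with a median difference of 0.030 on the log2 scale. Spaca1, a membrane protein that shapes the acrosome on the nucleus, measured 158, 140 and 165 CPM at 3M, 182, 163 and 167 at 6M, 178, 168 and 168 at 12M and 188, 186 and 183 in the 18M mice. Its 18M mice were all above the mice of every younger age on CPM, by a narrow gap (182.9 against 182.4 in the first 6M mouse). On FPKM the first 6M mouse, at 149.03, was above the third 18M mouse, at 148.98. The 18M mice exceeded the 3M mice by 0.27 ± 0.066 (log2, SE), with an adjusted p of 0.353 in edgeR and 0.0478 in DESeq2. Fam170b, which encodes a protein of the acrosome, measured 183, 179 and 197 CPM at 3M, 186, 185 and 199 at 6M, 211, 212 and 212 at 12M and 205, 210 and 209 in the 18M mice. Its groups fell into a lower pair, 3M and 6M, and a higher pair, 12M and 18M, that did not overlap. Actl9, a single-exon gene on chromosome 17 at 33432896 to 33434268, measured 381, 360 and 368 CPM at 3M, 367, 375 and 355 at 6M, 377, 367 and 400 at 12M and 403, 406 and 416 in the 18M mice. Every 18M mouse was above every younger mouse on CPM, although the fold of 18M over 3M was 1.11. On FPKM the third 12M mouse, at 278.7, was above the first 18M mouse, at 276.6, and the second, at 276.9. How many of all genes and loci separate 18M from every younger mouse was not counted.

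The members lower at 18M were found mostly in this role. Gopc measured 35.9, 35.0 and 32.4 CPM at 3M and 31.7, 31.7 and 30.5 at 18M, with no overlap, and a difference of -0.14 ± 0.058. Dpy19l2, a protein of the inner nuclear membrane that anchors the acrosome and whose loss gives round-headed sperm, measured 232, 233 and 248.5 CPM at 3M and 220, 221 and 223 at 18M, with a fold of 0.931 and an interval from 0.870 to 0.996. One 12M mouse was lower still, at 189 CPM. Agfg1, which vesicle fusion in the forming acrosome depends on, had a fold of 0.979 with an interval from 0.925 to 1.04. Pick1, Zpbp, Zpbp2 and Sppl2c had folds that rounded to at most 1.02. Pick1 works with GOPC in vesicle traffic, Zpbp and Zpbp2 encode zona pellucida binding proteins of the acrosome, and Sppl2c is a protease of spermatid membranes.

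Among the genes of the acrosomal matrix and its enzymes, 9 of 10 were higher at 18M, with a median difference of 0.14 on the log2 scale. Acrv1 measured 205, 173 and 189 CPM at 3M and 219, 233 and 228 at 18M, a fold of 1.20 with an interval from 1.07 to 1.34. Hyal5 had a fold of 1.17 and its groups did not overlap. Spink2, a protease inhibitor of the acrosome, Spesp1, a protein of the equatorial segment, and Acrbp had folds of 1.05, 1.02 and 1.01. Acr, the protease that ACRBP and SPINK2 are known to hold in check, had a fold of 0.981 with an interval from 0.846 to 1.14. Spam1, Spaca7, Pcsk4 and Zp3r had folds from 1.10 to 1.13 with overlapping groups at 3M and 18M. Plcz1, the egg activation gene outside these roles, measured 267, 240 and 262 CPM at 3M and 268, 281 and 275 at 18M, which did not overlap by a narrow gap, with a fold of 1.07.

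**Figure D3:**
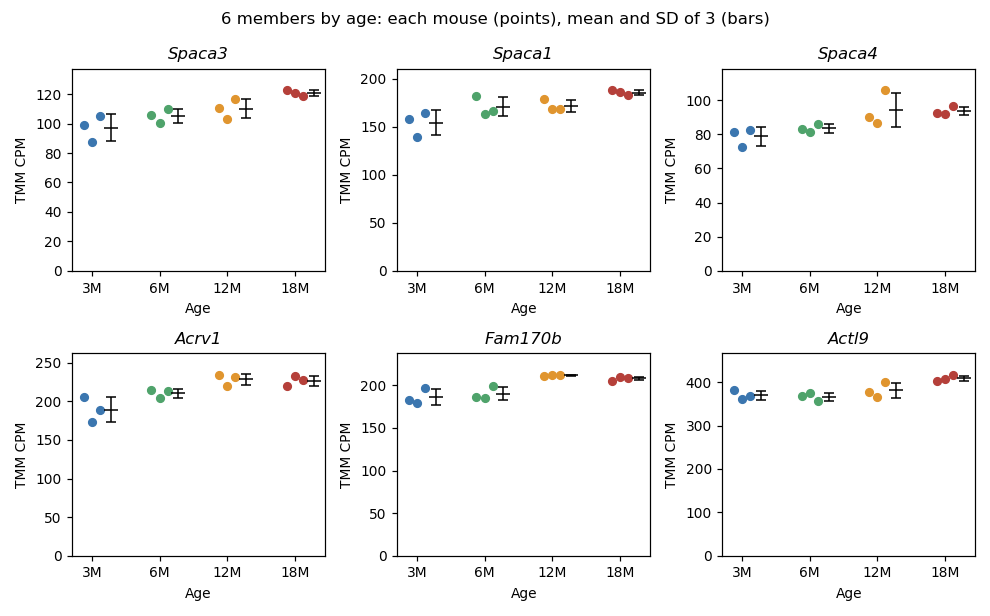
TMM-scaled CPM of 6 members at the 4 ages, with a point per mouse and the mean and SD of 3 mice beside them, on axes from 0. The 18M points of Spaca3, Spaca1 and Actl9 lie above all younger points by narrow gaps. On FPKM each of these genes has a younger mouse above an 18M mouse. The 18M points of Fam170b stand with 12M above 3M and 6M.

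Across all 4 ages, a slope on age in months was fitted to the 12 libraries with edgeR. It called 0 of 35 members, against 42 of 25093 genes and loci or 0.167%, and DESeq2 called 7, against 1.9% of all genes and loci. Those 7 were Acrv1, Actl9, Fam170b, Izumo1, Spaca1, Spaca3 and Spaca4, each with a positive slope. At an unadjusted p of 0.05 or less edgeR had 15 members, against 15.5% of genes and loci, 14 of them with a positive slope, against 7.42% of genes and loci in that direction, and 1, Gopc, with a negative slope, against 8.03%. The slope of Spaca3 was 0.019 ± 0.0042 log2 units per month with an adjusted p of 0.0995, that of Fam170b 0.012 ± 0.0032 with 0.142, and that of Actl9 0.010 ± 0.0027 with 0.142. By sign, 32 of 35 members had a positive slope, and 51.3% of all genes and loci did, with medians of 0.0082 and 0.00043 log2 units per month. The mean CPM was higher at each later age for 7 members, Actl7b, Eqtn, Izumo1, Izumo2, Spaca1, Spaca3 and Zp3r, against 6.9% of genes and loci, and lower at each later age for 0 members, against 6.91%.

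Neighbouring ages were compared in pairs. Between 3M and 6M edgeR called 0 of 35 members (0.0729% of genes and loci called), between 6M and 12M 0 (0.0404%) and between 12M and 18M 0 (0.0202%). DESeq2 called 0 members in each, where it called 96 of 28932, 126 of 28969 and 56 of 29004 genes and loci. At an unadjusted p of 0.05 or less and in the direction of a higher value at the later age there were 1 member between 3M and 6M (2.21% of genes and loci), Hyal5, 3 between 6M and 12M (3.55%), Fam170b, Acrbp and Pcsk4, and 2 between 12M and 18M (1.81%), Izumo2 and Spaca1. Counting both directions, 3.94%, 7.5% and 3.57% of genes and loci were at that p, and 1.73%, 3.94% and 1.76% were at it with a lower value, where the members had 0 in each pair. The test for any difference among the 4 ages called 0 members with edgeR (0.0789% of genes and loci) and 2 with DESeq2 (1.27%), Acrv1 and Fam170b, and 11 had an unadjusted p of 0.05 or less in edgeR (8.99%). The age comparisons share libraries, so their values for a member are not independent of each other.

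The median depended in part on a single library. The median member was 0.119 log2 units below its mean of 12 libraries in the second 3M mouse, the lowest of the 12, and 0.079 above it in the second 18M mouse, the highest. Without the second 3M mouse the median difference between 18M and 3M was 0.077 in place of 0.13, the median slope was 0.0050 in place of 0.0082 per month, and 25 of 35 members were higher at 18M. Without any other single library the median difference stayed between 0.11 and 0.16. The sign of the difference also turned without one or another library for Acr, Acrbp, Actl7a, Pick1, Spesp1, Sppl2c, Zpbp and Zpbp2, whose fitted folds lay between 0.981 and 1.04. No library left out gave an edgeR call for a member, and the fold of Spaca3 was 1.18 without the second 3M mouse.

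Other genes of the same process and markers of testis cell types were measured in the same fits. Of 49 other genes linked to the acrosome or to fertilization, 44 passed the filter on low counts in the edgeR slope test. Of these 44, edgeR called 0 (0.167% of all genes and loci), and 30 had a positive slope, with a median of 0.0075 per month. DESeq2, run without that filter, called 2 of 47 (1.9% of all genes and loci). Tmem190 and Lyzl1, whose products are membrane and lysozyme-like proteins of sperm, had slopes of 0.021 and 0.020 per month with adjusted p of 0.166 and 0.128 in edgeR, and Rimbp3, of the spermatid manchette, and Lmtk2, a kinase, had negative slopes of -0.010 and -0.013 with adjusted p of 0.265 and 0.209. All 10 markers of round and elongating spermatids were higher at 18M than at 3M, with a median difference of 0.13, and edgeR called 0 of the 10. Their summed CPM ranged from 18815 to 20618 at 3M and from 19746 to 22966 at 18M, and it reached 25004 in one 12M mouse. Of 8 meiotic spermatocyte markers, 4 were higher at 18M, with a median of -0.0053. Of 7 Leydig cell markers, 6 were lower at 18M, with a median of -0.83 and 2 negative slopes called by edgeR, Cyp11a1 and Cyp17a1, enzymes of androgen synthesis. Of 7 markers of peritubular myoid and stromal cells 0 were higher at 18M, with a median of -0.30, and 3 had a negative slope at an unadjusted p of 0.05 or less. The endothelial markers had 1 of 5 higher with a median of -0.25, and the markers of macrophages and lymphocytes 1 of 5 tested with a median of -0.25. Of 8 spermatogonial markers 3 were higher, with a median of -0.070, of 8 Sertoli cell markers tested 4, with a median of -0.0017, and of 3 blood markers 1, with a median of -0.14. The part of spermatid and somatic cell content in the values of the members was not tested.

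**Figure D4:**
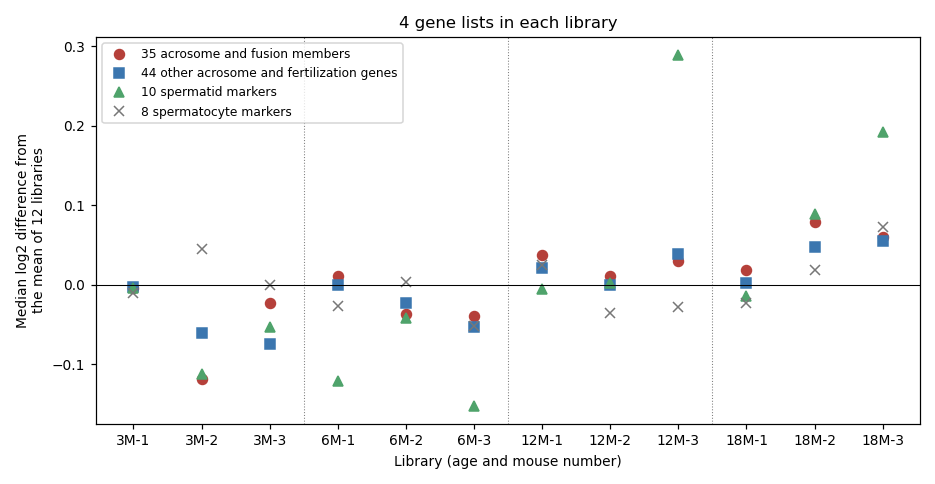
Median log2 difference of 4 gene lists from their own mean of 12 libraries, in each library, with a marker per list. The members are lowest in the second 3M mouse at -0.119, where the spermatid markers stand at -0.112, and highest in the second 18M mouse at 0.079, where the spermatid markers stand at 0.089. In the third 12M mouse the spermatid markers reach 0.289 and the members 0.029.

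The deposited rows are assembled transcripts, and the 35 members have 109 of them, of which 56 match a RefSeq transcript exactly, 46 share at least a splice junction with one and 7 overlap one. At the transcript level edgeR called 0 of 98 member transcripts tested between 3M and 18M, where 0.108% of all transcripts were called, and 0 of 102 in the slope test, where 0.00881% were. DESeq2 called 8 of 98 (3.37% of all transcripts) and 5 of 99 (1.72%). Of these, NM_016845 of Acrbp was lower at 18M, with a log2 difference of -0.14 and an adjusted p of 0.00156 in DESeq2. The others rose with age. At an unadjusted p of 0.05 or less edgeR had 10 of 98 (5.4%) and 17 of 102 (6.99%). In both edgeR tests the smallest p among member transcripts belonged to the RefSeq transcripts of Actl9, Spaca3 and Acrv1. The transcript of Spaca3, NM_029367, had a slope of 0.019 per month with an adjusted p of 0.457, that of Actl9, NM_183282, one of 0.010 with 0.485, and that of Acrv1, NM_007391, one of 0.016 with 0.515.

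Of the 35 members, 23 had more than 1 transcript with a mean of at least 1 CPM, and the same transcript led in all 12 libraries in 16 of these. In the other 7, Pcsk4, Actl7b, Agfg1, Spaca6, Izumo3, Spaca1 and Pick1, the leading transcript differed between mice of a single age. In 4 of the 7, Pcsk4, Spaca6, Izumo3 and Spaca1, it also differed between ages by mean CPM. Crisp2 shows how steady such a share can be, with 65.4% to 67.3% of its CPM on NM_009420 in all 12 libraries.

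Spaca1 has a pair of RefSeq transcripts that end at different places. NM_001290443 took 70.7%, 32.3% and 31.4% of the CPM of Spaca1 in the 3M mice, 66.3%, 35.8% and 32.1% at 6M, 72.2%, 42.3% and 68.7% at 12M and 71.0%, 71.7% and 69.9% in the 18M mice. The shares fell either between 66.3% and 72.2% or between 31.4% and 42.3%, and all 3 mice of 18M were in the upper range. NM_001290443 was 0.91 ± 0.37 log2 units higher at 18M with an adjusted p of 0.920 in edgeR, and the summed Spaca1 level varied far less than the share.

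Pcsk4, a proprotein convertase of the acrosome, lies on the minus strand of chromosome 10, and 3 of its 6 assembled transcripts run on at their 5′ side into 311 exon bases of Reep6, which lies on the opposite strand. These 3 took 15.7%, 88.2% and 19.6% of the CPM of Pcsk4 in the 3M mice, 93.4%, 92.6% and 89.3% at 6M, 38.0%, 97.1% and 98.1% at 12M and 25.0%, 16.5% and 98.1% in the 18M mice. The shares switched between mice of an age, while the summed CPM of Pcsk4 stayed between 205 and 266. The kit does not mark the strand, so reads of Reep6 and of the far end of Pcsk4 cannot be told apart.

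Actl7a and Actl7b, actin-like genes of the subacrosomal layer, lie next to each other on opposite strands of chromosome 4. Their levels and transcript shares varied between mice of an age. The Actl7b transcript NM_025271 took nearly all of the CPM of Actl7b in 10 libraries, but 4.62% in the third 3M mouse and 11.3% in the first 12M mouse, where the longer assembled transcript MSTRG.14023.2 took the rest. Actl7b measured 662, 618 and 331 CPM at 3M and 724, 712 and 704 at 18M, and in the third 3M mouse Actl7a stood at 364 CPM, against 277 and 252 in the other 3M mice. The sum of both genes was 699 CPM there and ranged from 876.8 to 1094 in the other libraries. In the first 12M mouse Actl7b stood at 656 CPM and Actl7a at 229, its lowest of the 12 libraries. The second 18M mouse had 712 CPM of Actl7b and 385 of Actl7a. Whether reads of one gene were assigned to the other was not tested. Without the third 3M mouse the difference of Actl7b between 18M and 3M was 0.16 ± 0.047 in place of 0.41 ± 0.24. Actl7b, Dcst1 and Actl7a had the largest spread within ages, from 0.28 to 0.24 as SD of log2 CPM, against a median of 0.084 over the members.

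**Figure D5:**
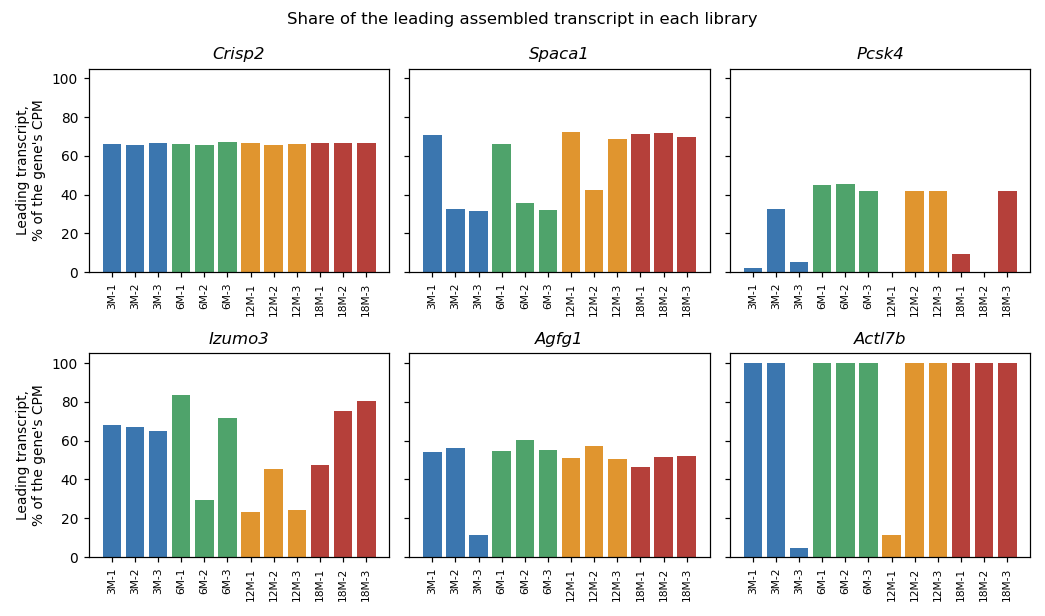
Share of the transcript with the highest mean CPM in the CPM of its gene, as percent, in each of the 12 libraries for 6 members, coloured by age. Crisp2 stays between 65.4% and 67.3%, while Spaca1, Pcsk4 and Izumo3 switch between mice of an age, and Agfg1 and Actl7b drop in the third 3M mouse to 11.3% and 4.62%.

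The leading transcript of Izumo3 and Agfg1 also differed between mice of an age. NM_027034 took 65.3% to 68.3% of the CPM of Izumo3 in the 3M mice and 83.5%, 29.4% and 71.8% at 6M. The main Agfg1 transcript took 11.3% in the third 3M mouse and 46.6% to 60.3% in the other libraries, although the summed Agfg1 level of that mouse, 182 CPM, was close to the 183 and 184 of the other 3M mice. Transcripts of 9 members overlapped at least 100 exon bases of another annotated gene that is not a member, among them Acrbp, Pick1, Zpbp and Spaca7, and all transcripts of Pick1 overlapped Gm49486 by 1072 to 1222 bases. Read counts of these transcripts can include reads of the other gene.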

How the data were processed

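Total RNA of 12 C57BL/6 testes was depleted of ribosomal RNA and sequenced in pairs with a kit that does not mark the strand. Per the labels and the study's methods, the authors aligned reads with HISAT2 to mm10 and assembled and quantified 71967 transcripts with StringTie 1.3.3b. Their deposited table gives estimated counts of reads per transcript, which follow from coverage and length, and deposited FPKM values per transcript and library. Totals ran from 50924104 to 71803379 reads per library, and counting intervals would cover counting error only.

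Here estimated counts, already whole numbers, were summed over the transcripts of a gene symbol that match or overlap its annotation on the same strand, and other transcripts were summed per locus. Genes were tested with edgeR 4.0.16 (TMM, filterByExpr, glmQLFit and glmQLFTest, Benjamini-Hochberg over all genes and loci tested, called at an adjusted p of 0.05 or less), in pairs of ages and over all 12 libraries, and DESeq2 1.42.0 was an alternative. SD is over 3 mice. SE was calculated here from edgeR's fitted difference and F statistic, and 95% intervals from that SE and the t distribution. FPKM was summed per gene and used for levels only. The tests were tried first on simulated counts with folds of 1.5 or more. Changes as small as those fitted for the members were not simulated. Locations are from GENCODE vM21 on GRCm38, and promoters from RefSeq. The members and lists were chosen with earlier results of these data known, and the 5 members given mouse by mouse at all ages were those of the smallest p in the slope test and between 3M and 18M, 3 from each with Spaca3 in both, beside Crisp2 as the highest level. The p-values set the age differences against the spread between the mice of an age. Mice of an age may share a litter, so that spread may leave out differences between litters. Same-numbered libraries of different ages did not vary together (r of deviations from the age means between -0.071 and 0.064 over 18 pairs), so the numbers were not taken as pairs.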

Additional observations from a re-analysis of the deposited data

Results flagged for a closer look

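Rows outside the gene sums held reads at member loci. A locus of 3 assembled transcripts at chr3:89365252-89377643 (mm10, plus strand), listed without the symbol Dcst2, overlies that gene, the member with no row of its own. Its longest match has 15 exons, of which 13 have both ends equal to those of GENCODE's Dcst2, and it shares 2268 exon bases with Dcst2 and 2 with Dcst1. The locus had a mean of 100 CPM and at least 4726 reads in every library. Its FPKM was 33.9 ± 2.03 at 3M, 37.0 ± 1.81 at 6M, 38.9 ± 3.21 at 12M and 35.7 ± 1.32 in the 18M mice (SD, n = 3), and its groups at 3M and 18M overlapped. It was singled out after its values were seen and is in no count of members.

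Transcripts listed under a member's symbol but left out of its sum were also above 3 reads in every library. Those on the opposite strand to Agfg1 had a mean of 3.14 CPM and the one opposite Sppl2c 1.04 CPM, and a transcript close to Actl9 without overlapping it had 8.49 CPM.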

How the results depend on the processing

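No edgeR fit called a member: scaling by RLE size factors or by library size alone, no filter on low counts, exact RefSeq matches only, all transcript classes, a fit of all 12 libraries and each library left out in turn gave 0 calls in the 88 fits tried. DESeq2 called 2 members between 3M and 18M, 7 in the slope, 2 for any difference among ages and 0 in each pair of neighbouring ages, 8 and 5 member transcripts between 3M and 18M and in the slope, and 2 of the other acrosome and fertilization genes. The cause was not tested. At an unadjusted p of 0.05 or less there were 12 members between 3M and 18M, 1 between 3M and 6M, 3 between 6M and 12M, 2 between 12M and 18M, 15 in the slope and 11 for any difference, and 17 other acrosome genes in the slope. With the replicate number as a block edgeR called 0 members and 0 member transcripts in each test, and 5 of 12 libraries were on average closer to their own number than to others. The count of members higher at 18M, an alternative chosen after seeing the data, stayed between 25 and 31 of 35 when a library was left out, and that of positive slopes between 28 and 32. With exact RefSeq matches only, both counts were 25 of 35, and under the other scalings, filters and tools 29 to 31 members were higher at 18M and 31 or 32 had a positive slope. The size of some differences moved more. Over all settings tried, the 18M to 3M difference reached -1.95 log2 units for Agfg1 and -1.68 for Actl7a, outside 2-fold. With single libraries left out it stayed between -0.037 and -0.018 for Agfg1 and between -0.13 and 0.23 for Actl7a. Exact RefSeq matches held 11.5% of the CPM of Actl7a, and the assembled transcript MSTRG.14022.5 held 57.6%. The lowest adjusted p of these genes in that comparison with edgeR were 0.679 and 0.609. The lowest slope of Spaca6 over the settings was -0.012 per month. The count with a mean FPKM of at least 10 stayed between 31 and 35. Every member had at least 750 reads in every library, and each age had 3 mice.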
